A study of Mus musculus with 8 samples.

Results

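The genes described here encode splicing factors and heterogeneous nuclear ribonucleoproteins (hnRNPs), and they were taken by symbol from 1 table of liver RNA sequencing counts. A gene was a member when its symbol began with Srsf, Hnrnp, Sf3a, Sf3b, Snrp, Prpf, U2af or Lsm in the form of those families and its mean was at least 10 counts over the 8 libraries. Of 19267 genes in the table, 81 had such a symbol and 79 were members, namely 10 Srsf, 20 Hnrnp, 9 Sf3a or Sf3b, 12 Snrp, 13 Prpf, 2 U2af and 13 Lsm genes. Srsf12 (mean 0.75 counts) and the pseudogene Snrpert (mean 7 counts) fell under the minimum, while Snrpn (mean 11.4 counts) and Lsm11 (mean 13.5 counts) were just above it. All 79 members passed the filter on low counts, which kept 13993 genes.

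Livers came from male C57BL/6 mice, 9 weeks old, that had been given a Lieber-DeCarli liquid diet for 21 days. The diet held either 5% (w/v) alcohol (EtOH) or maltose dextrin at equal calories (Control). Elf4-/- mice carried floxed Elf4 and a Cre transgene under the Villin promoter, so that Elf4, which encodes a transcription factor of the ETS family, was deleted in gut epithelium and not by design in liver, and WT mice carried the Cre as well. This gave 4 groups (the 2 genotypes on either diet), named WT Control and WT EtOH, and Elf4-/- Control and Elf4-/- EtOH, of 2 libraries each. The labels do not say whether the libraries of a group came from separate animals, so p-values measure only the spread between these libraries, which may be technical.

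Introns are removed from pre-mRNA by the spliceosome, which is assembled on each intron from small nuclear ribonucleoproteins (snRNPs). U1 snRNP recognizes the 5′ splice site, U2 snRNP with U2AF recognizes the branch point and the 3′ splice site, and the U4/U6.U5 tri-snRNP then joins. U1, U2, U4 and U5 share a ring of Sm proteins, whereas U6 carries the LSm2 to LSm8 ring. SR proteins and hnRNPs bind the transcript itself and shift the choice of splice sites, the SR proteins mostly from exonic enhancers and hnRNPs often from silencers.

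Library totals ran from 6171051 to 9157362 counts. Values are given as CPM, read counts relative to the library total scaled by TMM factors, in the order replicate 1 then replicate 2, and fold changes are log2 values ± SE. A gene is called when its Benjamini-Hochberg adjusted p over all 13993 genes was under 0.05 in edgeR's quasi-likelihood test. Elf4 itself, targeted in gut only, had 6 and 11 (WT) or 12 and 6 (Elf4-/-) counts under Control and 27 and 36 (WT) or 14 and 34 (Elf4-/-) counts under EtOH, so these livers give no check of the deletion. Genes of the mitochondrial genome took 33.7% and 23.4% of counts in WT Control against 12.5% and 10.8% in WT EtOH, and between 18.3% and 22.1% in the Elf4-/- libraries.

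Markers of non-parenchymal cells moved with diet in WT, and some differed between genotypes. All 6 Kupffer cell markers were called higher in WT EtOH, their sum being 151 to 199 CPM on Control diet and 504 to 557 CPM on EtOH in WT, and 139 to 142 CPM on Control diet and 188 to 199 CPM on EtOH in Elf4-/-. All 5 endothelial markers were also called higher in WT EtOH (39.7 to 70.7, 210 to 251, 103 to 108 and 103 to 169 CPM in the same order), as were 4 of 5 stellate cell markers (29.0 to 66.3, 248 to 328, 92.8 to 119 and 196 to 316 CPM). No marker of these 3 lists was at 0 in any library. Under EtOH, 2 of 6 Kupffer markers were called lower in Elf4-/- in edgeR (Clec4f and Cd5l, against 0.0214% of all genes). At an unadjusted edgeR p under 0.05 all 6 were lower, against 10.5% of all genes in either direction. Under Control, 4 of 5 endothelial and 4 of 5 stellate markers were higher in Elf4-/- at that p (against 7.31%), with 0 called. For the interaction 5 Kupffer, 4 endothelial and 2 stellate markers were lower at that p (against 10.1%), with 0 called. Hepatocyte markers were abundant in every library, but their sum was lower on EtOH in both genotypes. It was 52991 to 73132 CPM on Control diet and 35716 to 42292 CPM on EtOH in WT. In Elf4-/- it was 64842 to 72476 CPM on Control diet and 44228 to 56018 CPM on EtOH. In WT EtOH 1 of the 6 was called higher and 1 lower, and 1 had a positive value (median −0.37). For alcohol in Elf4-/- 3 of the 6 had positive values (median −0.044). Of the 4 T and NK cell markers tested 1 was called higher (Cd3e, Cd3d, Cd3g, Gzma and Klrb1c were at 0 in some Control libraries). Of the 11 B cell, neutrophil, bile duct and intestinal epithelium markers tested 0 were called in WT EtOH in edgeR or DESeq2, and 3 were at an unadjusted edgeR p under 0.05. Of 4 RNAs that stay in the nucleus, Malat1 and Neat1 were called lower and Meg3 higher in WT EtOH, and their sum over the 4 was 2505 to 4096 CPM on Control diet and 1292 to 1297 CPM on EtOH in WT, and 1827 to 1969 CPM on Control diet and 1411 to 2394 CPM on EtOH in Elf4-/-. Of the 8 proliferation genes tested 0 were called in WT EtOH in edgeR or DESeq2, with 1 at an unadjusted edgeR p under 0.05, while for alcohol in Elf4-/- edgeR called 0, DESeq2 called 1 higher and 3 were at an unadjusted edgeR p under 0.05. The part of these shifts in the results below was not tested, and in bulk liver fewer cells of a type and less RNA per cell cannot be told apart.

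Promoters are shown for the members that moved most clearly with alcohol in WT liver, the 3 rises and 3 falls with the smallest p among the called members that have a RefSeq promoter window. Each line gives the 150 bases before the transcription start in GRCm38.p6 (RefSeq), 5′ to 3′ on the gene's own strand, and capitals mark matches to the 4 motifs searched.
Sf3b6 (chr12:4817458-4817607, plus strand): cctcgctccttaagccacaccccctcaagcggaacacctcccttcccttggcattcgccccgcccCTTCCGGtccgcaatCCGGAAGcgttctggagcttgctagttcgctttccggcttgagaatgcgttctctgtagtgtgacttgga
Snrpc (chr17:27839937-27840086, plus strand): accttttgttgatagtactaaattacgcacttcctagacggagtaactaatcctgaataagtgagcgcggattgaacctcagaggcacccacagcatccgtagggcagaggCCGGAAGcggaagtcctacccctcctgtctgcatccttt
Snrpe (chr1:133610281-133610430, minus strand): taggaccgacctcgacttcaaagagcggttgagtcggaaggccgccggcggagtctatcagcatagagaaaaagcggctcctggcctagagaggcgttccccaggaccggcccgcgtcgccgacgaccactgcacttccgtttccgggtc
Prpf40b (chr15:99295091-99295240, plus strand): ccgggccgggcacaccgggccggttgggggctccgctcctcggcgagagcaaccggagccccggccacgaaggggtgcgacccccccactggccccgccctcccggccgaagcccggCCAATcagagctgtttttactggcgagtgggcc
Snrpa (chr7:27196272-27196421, minus strand): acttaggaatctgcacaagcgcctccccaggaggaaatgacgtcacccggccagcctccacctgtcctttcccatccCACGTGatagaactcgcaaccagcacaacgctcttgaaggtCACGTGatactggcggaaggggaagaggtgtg
Srsf4 (chr4:131873487-131873636, plus strand): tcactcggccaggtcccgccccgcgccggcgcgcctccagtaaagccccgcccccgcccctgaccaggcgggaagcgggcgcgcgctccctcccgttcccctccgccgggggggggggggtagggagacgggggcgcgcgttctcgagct

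The motifs were the ETS core CCGGAAG, the E-box CACGTG, the CCAAT box CCAAT and the TATA box TATAAA, searched on both strands of 300-base windows (250 bases before to 50 after the start, 1 window per gene). A window was found for 67 of the 79 members. The ETS core was in 20 of the 67 member windows (29.9%), against 17.8% of 10294 windows of tested genes and 9.12% of all 27025 windows. CCAAT was in 34 (50.7%, against 38.8% of tested genes), CACGTG in 8 (11.9%, against 10.2%) and TATAAA in 6 (8.96%, against 7.53%). Among the called rises in WT with a window, 4 of 6 held the ETS core, namely Sf3b6 at −85 and −70, Prpf19 at −68, Snrpc at −39 and Snrpe just after its start, where the 2 matches at 4 and 7 overlap. Among the called falls 1 of 6 held it, Srsf4 at −210, which is upstream of the stretch printed. Snrpa held 2 E-boxes, at −73 and −32, and Prpf40b held CCAAT at −33. Positions are those of the first base of a match, counted from the transcription start. A match describes letters in a window only, and these shares carry no test.

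The first question was how the alcohol diet changed these genes in WT liver. Single members changed in both directions, by up to 2.01 on the log2 scale, while the median of the set was near 0. In WT EtOH 8 of 79 members were called higher (10.1%, against 10.8% of all genes tested) and 6 were called lower (7.59%, against 10.8% of all genes tested). Both shares were near the background of the whole liver transcriptome. The members' median log2 fold change was 0.033 against 0.012 over all genes. The middle of the members, from −0.31 to 0.38 between quartiles, was narrower than that of all genes, from −0.50 to 0.59. All genes tested include genes of lower counts. At an unadjusted p under 0.05, 13 members were higher and 15 lower, 35.4% of members and 36.4% of all genes.

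**Figure D1:**
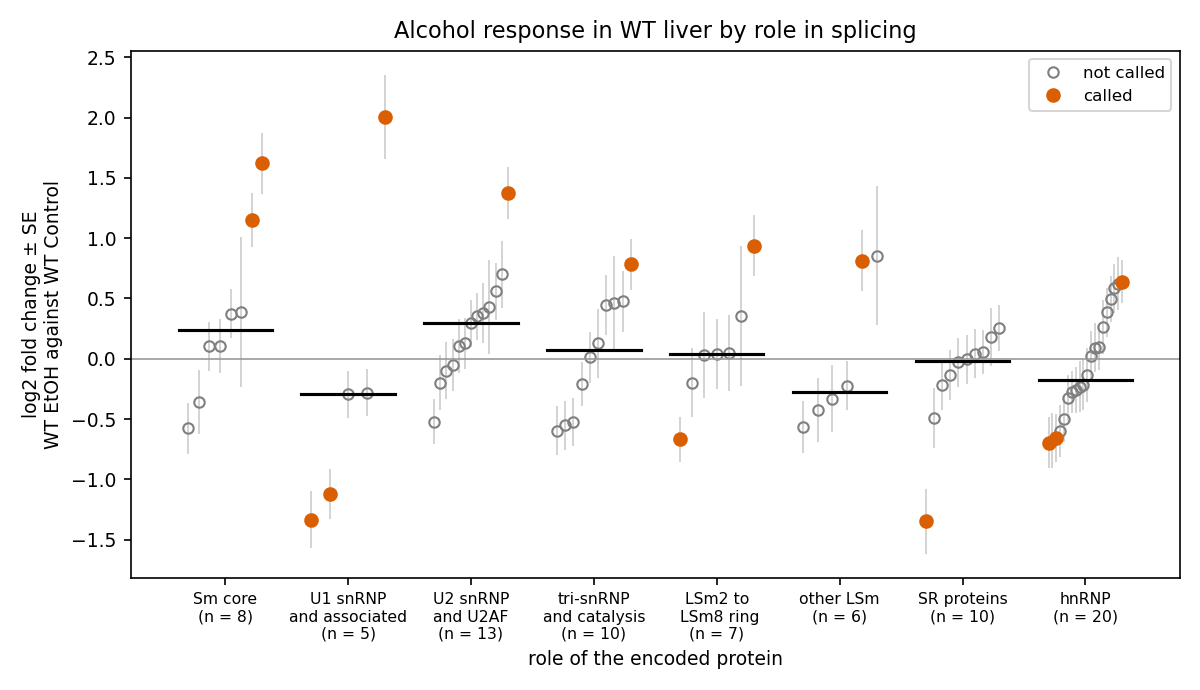
Log2 fold change of each of the 79 members in WT EtOH against WT Control (edgeR, error bars SE), grouped by the role of the encoded protein. Filled points are the 14 called members, open points were not called, and the black line is the median of each role. Called rises and falls sit together among the U1 genes, from −1.34 for Prpf40b to 2.01 for Snrpc.

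The genes of the U1 snRNP and its associated proteins held the widest range of the roles, from −1.34 to 2.01. Snrpc encodes U1-C, a zinc finger protein that helps U1 pair with the 5′ splice site (chromosome 17, 27838150 to 27851968, plus strand). Its level was 2.98 and 5.70 CPM in WT and 7.48 and 5.97 CPM in Elf4-/- on Control diet, against 18.0 and 17.1 CPM in WT and 17.5 and 11.8 CPM in Elf4-/- on EtOH. Every EtOH library was above every Control library of both genotypes, and the rise in WT was 2.01 ± 0.35 (edgeR adjusted p = 0.00501), the largest of any member. Snrpc was a low gene in WT Control, with 16 and 31 counts. Gene positions here and below are those of GENCODE M21 on GRCm38.

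Snrpa, which encodes U1-A, the protein that binds a stem-loop of U1 RNA (chromosome 7, 27187005 to 27196271, minus strand), went the other way. It measured 53.9 and 62.4 (WT) or 41.9 and 45.6 (Elf4-/-) CPM under Control and 27.4 and 26.0 (WT) or 24.5 and 34.8 (Elf4-/-) CPM under EtOH, so that all EtOH libraries were below all Control libraries, and it fell by 1.12 ± 0.21 on the log2 scale in WT (edgeR adjusted p = 0.00690). Snrpa shares exon bases with BC024978 on the opposite strand (mean 180.5 counts, −0.38, adjusted p = 0.187). Prpf40b, a homolog of the yeast U1 factor Prp40 (chromosome 15, 99295087 to 99317018, plus strand), was measured at 73.3 and 75.6 CPM in WT and 51.1 and 73.8 CPM in Elf4-/- on Control diet, against 28.7 and 30.3 CPM in WT and 29.5 and 41.4 CPM in Elf4-/- on EtOH. It too was lower in every EtOH library than in any Control library, and fell by 1.34 ± 0.24 in WT (edgeR adjusted p = 0.00535). Prpf39, also associated with U1, was not called. Over all 5 genes of this role 1 was called higher and 2 lower, with a median of −0.29. Beside this and the roles below, 10.8% of all genes tested were called higher, 10.8% lower, and 50.7% had positive values. Snrnp70, which encodes the U1 protein U1-70K, is no member by its symbol, and was at 0.13 ± 0.23 for alcohol in WT (adjusted p = 0.727).

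Since Snrpc and Snrpa are subunits of the same particle, their counts were also set against each other within each library, a ratio chosen after their values were seen. Per 100 Snrpa counts there were 5.54 and 9.14 Snrpc counts on Control diet and 65.4 and 65.9 on EtOH in WT. In Elf4-/- the ratio was 17.8 and 13.1 on Control diet and 71.4 and 34.0 on EtOH. All EtOH libraries were above all Control libraries, and the ratio does not depend on how libraries were scaled. It is not corrected for transcript length, and as both genes were picked for their opposite changes it is a description with no test.

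**Figure D2:**
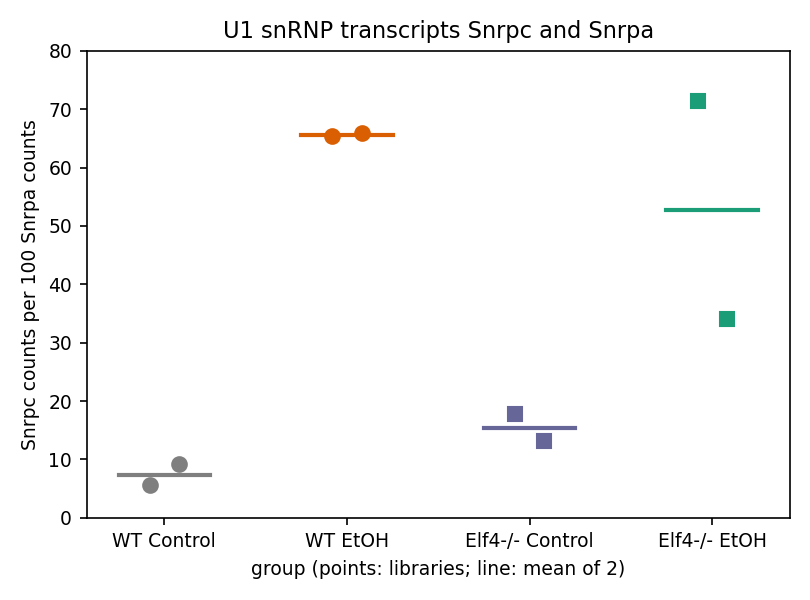
Snrpc counts per 100 Snrpa counts in each of the 8 libraries, by group, with a line at the mean of the 2 libraries. The lowest EtOH library, at 34.0, is above the highest Control library, at 17.8.

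Among the 8 genes of the Sm core, 2 were called higher, 0 lower, and 6 had positive values, with a median of 0.24. Snrpb encodes SmB, which is part of the ring of U1, U2, U4 and U5 (chromosome 2, 130171414 to 130179403, minus strand). It measured 7.09 and 6.81 (WT) or 8.71 and 7.31 (Elf4-/-) CPM under Control and 23.0 and 19.8 (WT) or 18.5 and 14.3 (Elf4-/-) CPM under EtOH. No EtOH library overlapped a Control library, and the rise in WT was 1.62 ± 0.25 (edgeR adjusted p = 0.00359). Snrpe encodes SmE (chromosome 1, 133603871 to 133610291, minus strand) and was 9.51 and 10.3 CPM in WT and 14.0 and 12.7 CPM in Elf4-/- on Control diet, against 23.5 and 20.5 CPM in WT and 16.3 and 19.8 CPM in Elf4-/- on EtOH, again without overlap between diets, with a rise of 1.15 ± 0.22 in WT (edgeR adjusted p = 0.00810). Of the other members of the ring, Snrpd2 had −0.58 and Snrpg 0.37, and neither was called. Snrpn, the SmN gene and a close relative of Snrpb, was low at 0.736 to 2.09 CPM in all libraries (0.39 ± 0.62, adjusted p = 0.687), and reads shared between such copies are uncertain, as they are between Snrpe and the pseudogene Snrpert.

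Of the 13 genes of U2 snRNP and U2AF, 9 had positive values and 1 was called, with a median of 0.29. The called gene was Sf3b6, whose product lies at the branch point adenosine within the SF3b complex (chromosome 12, 4817544 to 4827659, plus strand). Its level was 10.3 and 11.2 (WT) or 11.1 and 10.6 (Elf4-/-) CPM under Control and 25.4 and 30.4 (WT) or 20.7 and 24.8 (Elf4-/-) CPM under EtOH, with every EtOH library at least at 20.7 CPM and every Control library at most at 11.2 CPM. The rise in WT was 1.38 ± 0.22 (edgeR adjusted p = 0.00364). Sf3b1, the large SF3b scaffold that is often mutated in human myelodysplastic syndromes, was at 270 and 225 CPM under Control and 257 and 283 CPM under EtOH in WT and was not called (0.13 ± 0.21, adjusted p = 0.705). Of the U2AF pair, U2af2, which binds the polypyrimidine tract, was lower in all EtOH libraries (115 and 123 CPM in WT and 119 and 107 CPM in Elf4-/- on Control diet, against 78.4 and 87.5 CPM in WT and 78.1 and 78.3 CPM in Elf4-/- on EtOH) but did not pass the test (−0.52 ± 0.18, adjusted p = 0.0686), and U2af1, which reads the AG at the intron end, had −0.20 ± 0.23 (adjusted p = 0.563).

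In the tri-snRNP and the catalytic complexes 1 of 10 genes was called. Prpf19, a ubiquitin ligase and the core of the complex that activates the spliceosome (chromosome 19, 10895231 to 10909559, plus strand), measured 31.7 and 46.4 (WT) or 41.5 and 39.2 (Elf4-/-) CPM under Control and 62.0 and 72.4 (WT) or 51.6 and 54.8 (Elf4-/-) CPM under EtOH. EtOH libraries were above Control libraries in both genotypes, and the rise in WT was 0.78 ± 0.21 (edgeR adjusted p = 0.0287). Prpf8, the protein that holds the catalytic centre, was 114 and 116 CPM under Control and 72.2 and 87.9 CPM under EtOH in WT and did not pass (−0.52 ± 0.20, adjusted p = 0.0886). The median of the role was 0.070.

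The LSm genes gave calls in both directions. Lsm4, of the U6 ring (chromosome 8, 70673248 to 70678752, plus strand), was 8.20 and 8.83 CPM in WT and 9.43 and 8.80 CPM in Elf4-/- on Control diet, against 15.2 and 17.4 CPM in WT and 15.9 and 11.8 CPM in Elf4-/- on EtOH and rose by 0.94 ± 0.25 in WT (edgeR adjusted p = 0.0279), with no overlap between diets. Lsm7, a subunit of the same ring (chromosome 10, 80852821 to 80855209, minus strand), was 25.4 and 27.2 (WT) or 20.9 and 22.7 (Elf4-/-) CPM under Control and 16.2 and 16.9 (WT) or 20.6 and 20.3 (Elf4-/-) CPM under EtOH and fell by 0.67 ± 0.19 (edgeR adjusted p = 0.0318); its Elf4-/- libraries lay close together. Over the 7 genes of the ring the median was 0.039, and Lsm8, the subunit that sets the nuclear ring apart, had 0.039 ± 0.29 (adjusted p = 0.937). Outside the ring, Lsm14a, a protein of cytoplasmic P-bodies (chromosome 7, 34344646 to 34393315, minus strand), was 13.8 and 15.3 CPM in WT and 21.2 and 19.8 CPM in Elf4-/- on Control diet, against 26.3 and 24.9 CPM in WT and 26.8 and 15.9 CPM in Elf4-/- on EtOH. It was above WT Control in both WT EtOH libraries (0.81 ± 0.26, edgeR adjusted p = 0.0476), while its Elf4-/- groups overlapped. Lsm1, which replaces Lsm8 in the cytoplasmic ring of mRNA decay, was not called (−0.33 ± 0.28, adjusted p = 0.419).

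**Figure D3:**
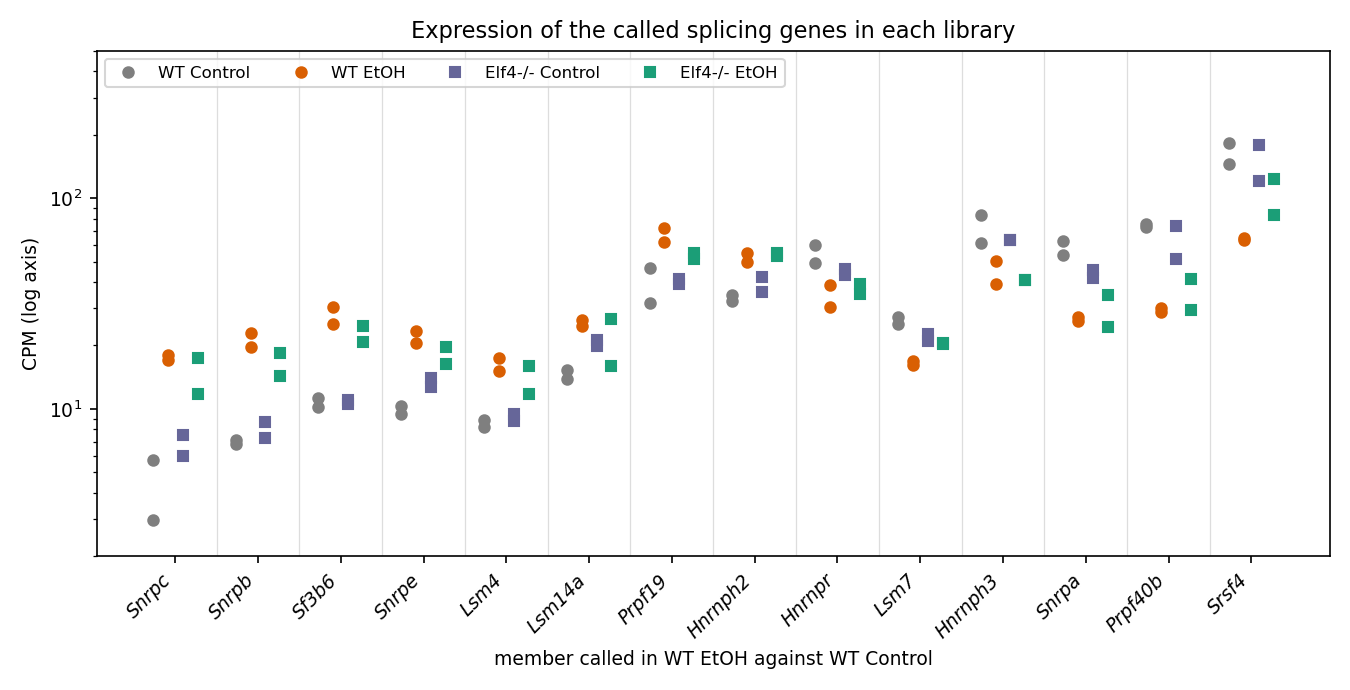
CPM (log axis) in each library of the 14 members called in WT EtOH against WT Control, ordered from the largest rise to the largest fall, with circles for WT and squares for Elf4-/-. The genes that rose, from Snrpc to Hnrnph2, are on the left and those that fell on the right, and the Srsf4 and Lsm14a libraries of Elf4-/- overlap between diets.

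Of the 10 SR protein genes 1 was called. Srsf4 encodes SRp75, a large SR protein (chromosome 4, 131873617 to 131901706, plus strand), and was 182 and 145 (WT) or 120 and 178 (Elf4-/-) CPM under Control and 65.0 and 63.1 (WT) or 123 and 83.3 (Elf4-/-) CPM under EtOH. It fell by 1.35 ± 0.27 in WT (edgeR adjusted p = 0.00855), whereas its Elf4-/- groups overlapped. Srsf4 shares exon bases with Gm12992 on the opposite strand, which had a mean of 736 counts against 832.5 for Srsf4 and a like value of −1.48 (edgeR adjusted p = 0.00761). The strand setting of the counting is not given in the sources used here, so the reads of the pair cannot be told apart. The founding SR genes gave values near 0, −0.13 for Srsf1 and 0.042 for Srsf2 (adjusted p = 0.677 and 0.903). Srsf3, Srsf5 and Srsf7 had 0.25, 0.18 and −0.49 (adjusted p = 0.374, 0.619 and 0.184). The median of the SR genes was −0.018.

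Among the 20 hnRNP genes 1 was called higher and 2 lower, with a median of −0.18. Hnrnph2 and Hnrnph3 are members of the hnRNP H family, which binds runs of G, and they were called in opposite directions. Hnrnph2 (chromosome X, 134601179 to 134607060, plus strand) was 34.7 and 32.6 CPM in WT and 35.9 and 42.2 CPM in Elf4-/- on Control diet, against 54.7 and 50.0 CPM in WT and 53.4 and 55.1 CPM in Elf4-/- on EtOH and rose by 0.64 ± 0.18 in WT (edgeR adjusted p = 0.0321). Hnrnph3 (chromosome 10, 63014664 to 63024217, minus strand) was 83.5 and 61.3 (WT) or 63.3 and 63.4 (Elf4-/-) CPM under Control and 39.1 and 50.1 (WT) or 41.0 and 41.0 (Elf4-/-) CPM under EtOH and fell by 0.70 ± 0.21 (edgeR adjusted p = 0.0409). Neither gene overlapped between diets in either genotype, although Hnrnph3 shares exon bases with Rufy2 on the opposite strand (mean 222.5 counts, −0.55, adjusted p = 0.0822). The opposite-strand partners of Hnrnpr and Lsm14a were low, with means of 11.6 and 1.75 counts.

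Hnrnpr (chromosome 4, 136310942 to 136359447, plus strand), which encodes an hnRNP closely related to SYNCRIP, was 60.2 and 49.3 CPM in WT and 42.9 and 46.1 CPM in Elf4-/- on Control diet, against 30.6 and 38.7 CPM in WT and 35.2 and 39.0 CPM in Elf4-/- on EtOH and fell by 0.66 ± 0.20 in WT (edgeR adjusted p = 0.0412). The abundant core hnRNPs did not pass. Hnrnpa1, the classical repressor of splice sites, was above Control in every EtOH library (53.1 and 60.9 (WT) or 66.2 and 50.0 (Elf4-/-) CPM under Control and 78.9 and 70.0 (WT) or 86.4 and 81.9 (Elf4-/-) CPM under EtOH) without passing the test (0.38 ± 0.20, adjusted p = 0.195). GENCODE M21 lists 2 genes named as pseudogenes of Hnrnpa1, and the count table has no such symbol. Hnrnpa2b1 and Hnrnpk had 0.021 and 0.092 (adjusted p = 0.953 and 0.776), and Hnrnpu, a nuclear scaffold protein, −0.22 (adjusted p = 0.484). Hnrnpl, which binds CA repeats, was lower in both WT EtOH libraries (150 and 155 CPM under Control and 101 and 114 CPM under EtOH in WT), at −0.50 ± 0.19 (adjusted p = 0.0883).

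How firmly these calls stand varied between members. Snrpc, Snrpb and Sf3b6 were called without each of the 4 WT libraries in turn, whereas the count of rises was 3 without WT EtOH replicate 1 (against 3.73% of all genes), 4 without WT EtOH replicate 2 (against 2.55%) and 4 without WT Control replicate 1 (against 5.24%). The count of falls was 3 without WT Control replicate 1 (against 4.76% of all genes), 2 without WT EtOH replicate 1 (against 2.88%) and 0 without WT EtOH replicate 2 (against 1.73%), so that calls over all genes became fewer as well. Without WT Control replicate 2 there were 7 rises and 6 falls (against 5.96% and 5.9% of all genes). DESeq2 called Snrpc, Snrpb, Sf3b6, Snrpe and Prpf19 higher and Prpf40b, Srsf4 and Snrpa lower, and not the other 6 genes, where it called 9.94% of all genes higher and 10.1% lower. Scaled by library totals alone, the split became 22 higher and 3 lower (against 24.5% and 4.53% of all genes) and the members' median 0.46, but the median of all 13993 genes moved to 0.44 with them. Snrpa, Prpf40b and Srsf4 were still called lower in that setting, and the medians of the roles above are relative to the TMM scaling.

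The next comparison asked the same of mice without gut Elf4. In Elf4-/- EtOH against Elf4-/- Control 1 member was called higher (1.27%, against 1.71% of all genes tested) and 0 were called lower (against 1.18% of all genes tested). At an unadjusted p under 0.05, 9 were higher and 6 lower, 19% of members and 21.2% of all genes. DESeq2 called 1 higher (against 3.23% of all genes) and 0 lower (against 2.57%). The called gene was again Sf3b6, at 1.07 ± 0.21 (edgeR adjusted p = 0.0326). Snrpb was just short of the threshold at 1.02 ± 0.24 (adjusted p = 0.0543), followed by Prpf40b at −0.81 ± 0.23 (adjusted p = 0.0869) and Snrpc at 1.11 ± 0.32 (adjusted p = 0.0909). Snrpa had −0.56 ± 0.21 (adjusted p = 0.166). The members' median was 0.046, against 0.013 for all genes. Without Elf4-/- EtOH replicate 2, 3 members were called higher (Snrpc, Snrpb and Sf3b6) and 4 lower (Prpf40b, Srsf7, Lsm6 and Snrpa), while the calls over all genes also went up, to 5.58% higher and 5.82% lower. Sf3b6 was not called with the other groups left out of the fit (0.166% of all genes called higher) or with library totals (1.34%). It was also not called without either Elf4-/- Control library, where calls over all genes became fewer as well.

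The diet comparisons in WT and in Elf4-/- share no library, so their values can be set side by side. All 14 members called in WT had the same sign in Elf4-/-, where 91.7% of all genes called in WT did. Their median size was 1.03 in WT and 0.547 in Elf4-/-, counted in the WT direction, and over all genes called in WT it was 1.29 and 0.61. The genes were selected by their size in WT, and the part of that selection in the smaller size in Elf4-/- was not tested. Over all 79 members 62 had the same sign (78.5%, against 73% of all genes). Across genes, which are not independent replicates, Pearson's r was 0.727 and Spearman's rho 0.668, against 0.62 and 0.597 over all genes. All genes tested include genes of lower counts, and the part of that in these differences was not tested.

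**Figure D4:**
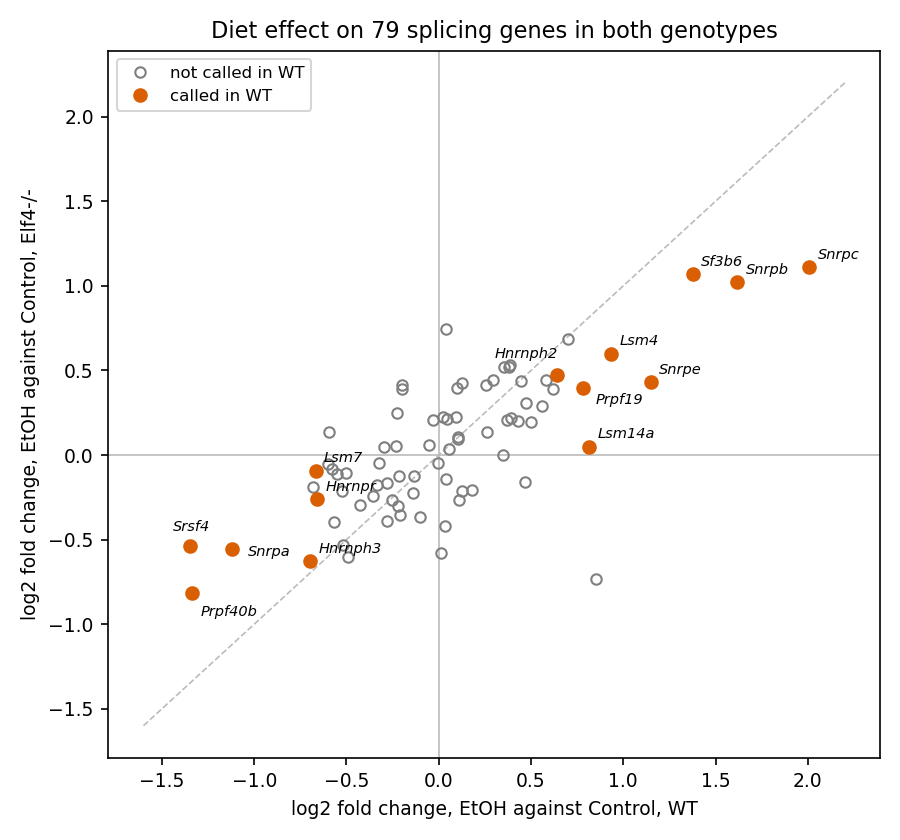
Log2 fold change by alcohol of each member in WT (x axis) and in Elf4-/- (y axis), with the 14 members called in WT filled and named and a dashed line of equal values. Snrpc, Snrpb and Sf3b6 are at the upper right and Prpf40b, Snrpa and Srsf4 at the lower left, and Lsm14a lies near 0 on the y axis.

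The spread between libraries can be read without a model. In WT, 25 members had both EtOH libraries above both Control libraries (31.6%, against 34.1% of all genes tested) and 29 had them below (36.7%, against 32.7%). In Elf4-/-, 27 were above (34.2%, against 25.8%) and 22 below (27.8%, against 26.3%). Across all 8 libraries, 16 members had every EtOH library above every Control library (20.3%, against 13.9% of all genes tested) and 13 had every EtOH library below (16.5%, against 14% of all genes tested). Besides the called genes, those above included Snrpb2, Sf3a3, Sf3b4, Snrpg, Hnrnpab, Hnrnpm, Prpf4 and Srsf3, and those below included Srsf7, U2af2, Hnrnpu, Prpf18, Prpf39 and Lsm14b. Hnrnpu shares exon bases with Cox20 on the opposite strand (mean 676 counts), itself called lower for alcohol in WT (−0.93, edgeR adjusted p = 0.0149). The opposite-strand partners of Prpf39 (Fkbp3, 297 counts, −0.44), Hnrnpab (Phykpl, 844 counts, 0.40) and Sf3b4 (Gm17690, 42.9 counts, −0.037) were not called.

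Direct comparisons of genotype gave no called member. Under EtOH, 0 members were called higher in Elf4-/- (against 0.121% of all genes tested) and 0 lower (against 0.0214%) in edgeR, and 0 in either direction in DESeq2 (against 1.07% higher and 0.229% lower). At an unadjusted edgeR p under 0.05, 2 were higher and 1 lower, 3.8% of members and 10.5% of all genes. The smallest p belonged to Srsf4, at 0.68 ± 0.26 (adjusted p = 0.406), and to Hnrnpll, a repressor known from T cell Cd45 splicing, at 0.53 ± 0.23 (adjusted p = 0.453). Hnrnpll was measured at 39.7 and 27.2 CPM in WT and 34.2 and 34.6 CPM in Elf4-/- on Control diet, against 21.2 and 20.5 CPM in WT and 34.1 and 26.3 CPM in Elf4-/- on EtOH, so that WT EtOH was the lowest group. Under Control, 0 members were called higher (against 0.00715% of all genes tested) and 0 lower (against 0.00715%) in edgeR, and 0 in either direction in DESeq2 (against 0.322% higher and 0.236% lower). At an unadjusted edgeR p under 0.05 there were 0 members, against 7.31% of all genes. The smallest p values were those of Prpf3, a tri-snRNP protein (32.8 and 26.3 (WT) or 22.8 and 20.4 (Elf4-/-) CPM under Control and 18.1 and 21.0 (WT) or 21.8 and 25.6 (Elf4-/-) CPM under EtOH), at −0.45 ± 0.21 (adjusted p = 0.695), and of Snrpa, at −0.41 ± 0.21 (adjusted p = 0.731). Medians over the members were 0.0080 under EtOH and 0.029 under Control, against 0.00093 and 0.012 over all genes.

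The interaction asks whether alcohol acted differently in the genotypes, as the effect in Elf4-/- minus that in WT. No member was called higher or lower, where 0% of all genes tested were called in either direction, and DESeq2 called 0 members (against 0.572% of all genes higher and 0.193% lower). At an unadjusted edgeR p under 0.05, 1 member was higher and 1 lower (2.53% of members and 10.1% of all genes), Prpf3 at 0.73 ± 0.29 (adjusted p = 0.443) and Snrpe at −0.72 ± 0.31 (adjusted p = 0.479). Snrpc had −0.90 ± 0.47 (adjusted p = 0.571), Srsf4 0.81 ± 0.37 (adjusted p = 0.505) and Lsm14a −0.76 ± 0.36 (adjusted p = 0.511), so the smaller alcohol values of these genes in Elf4-/- were not shown to differ from those in WT. The errors of these differences, 0.36 to 0.47 on the log2 scale for the 3 genes, are wide at 2 libraries per group.

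Levels per length differed widely between members. As mean CPM per kilobase of exon over the 8 libraries, Srsf5 was highest at 114, followed by Srsf2 at 70.8, Hnrnpa2b1 at 55.6, Srsf6 at 46.8, Hnrnpab at 44.7 and Hnrnph1 at 39.7. The lowest were Lsm11 at 0.273, Snrpn at 0.712, Lsm3 at 0.923 and Prpf38a at 1.05. On the scale of mean log2 CPM per kilobase, of the 40 members with the lower levels 5 were called higher and 2 lower in WT EtOH (median change 0.12 on the log2 scale), and of the 39 with the higher levels 3 were called higher and 4 lower (median −0.13). Called rises and falls were thus found in both parts of the order. Spearman's rho between this level and the alcohol effect was −0.278 across members in WT and −0.273 in Elf4-/-, against −0.161 and 0.000524 across the 13720 tested genes with a length, as a description across genes that share the same libraries.

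The libraries of a group differed less in the members than in all genes tested, which include genes of lower counts. The SD of the log2 difference between the 2 libraries of a group was 0.408 (WT) and 0.243 (Elf4-/-) under Control and 0.215 (WT) and 0.346 (Elf4-/-) under EtOH, against 0.698, 0.516, 0.476 and 0.786 over all genes. Members together took between 0.497% and 0.659% of the counts of a library, and between 0.668% and 0.792% of the counts outside the mitochondrial genome. By group mean the first share was lowest in WT Control (0.504%), and the second was lowest in Elf4-/- EtOH (0.703%, against 0.708% in WT Control).

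Splicing genes outside these families were read from a list of 90, all of which were tested. In WT EtOH 4 were called higher and 6 lower (4.44% and 6.67%, against 10.8% of all genes tested in each direction). DESeq2 called 2 higher and 6 lower (against 9.94% and 10.1% of all genes). The median of the 90 was 0.11, with 52 positive values. In the other 4 comparisons edgeR called 0 in either direction. At an unadjusted edgeR p under 0.05 there were 12 of the 90 for alcohol in Elf4-/- (against 21.2% of all genes). There were 3 for genotype under EtOH (against 10.5%), 2 for genotype under Control (against 7.31%) and 3 for the interaction (against 10.1%). DESeq2 called 2 lower for alcohol in Elf4-/- (against 2.57% of all genes) and 0 in the other 3. Eif4a3, the anchor of the exon junction complex, measured 14.2 and 17.5 CPM in WT and 16.4 and 17.0 CPM in Elf4-/- on Control diet, against 32.7 and 27.7 CPM in WT and 29.2 and 24.4 CPM in Elf4-/- on EtOH and rose by 0.93 ± 0.21 in WT (edgeR adjusted p = 0.0142). Phf5a, an SF3b subunit, rose by 0.83 ± 0.25 (edgeR adjusted p = 0.0443). Gemin5, which delivers snRNAs to the SMN complex for loading of the Sm ring, was 13.6 and 16.2 (WT) or 13.3 and 11.5 (Elf4-/-) CPM under Control and 6.57 and 7.64 (WT) or 8.45 and 12.2 (Elf4-/-) CPM under EtOH and fell by 1.06 ± 0.27 (edgeR adjusted p = 0.0233). Acin1, a partner of the exon junction complex, fell by 0.96 ± 0.21 (edgeR adjusted p = 0.0129).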

How the data were processed

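Liver total RNA gave 8 sequencing libraries, 2 for each combination of genotype and diet. Per the study's methods and the submitters' processing notes, the authors extracted RNA with Trizol, read paired ends on an Illumina HiSeq, mapped them to mm10 with HISAT2, handled alignments with SAMtools, counted with HTSeq and tested with DESeq2. Tool versions, the annotation, the strand setting and the treatment of ambiguous reads are not given in the sources used here. The table deposited by the authors has 1 column of raw read counts for each library, with gene symbols as row names. It has 19267 genes, beside 968 blank lines and 2 empty columns, which were left out. Totals ran from 6171051 to 9157362 counts, and the common coefficient of variation between libraries was 22.7%.

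Counts of all 8 libraries were fitted in 1 model of 4 groups with edgeR 4.0.16 (R 4.3.3, limma 3.58.1), with TMM factors, filterByExpr by group (13993 genes kept) and no covariate. The quasi-likelihood test was run for 5 contrasts, and p-values were adjusted by Benjamini-Hochberg across the 13993 genes, at a threshold of 0.05. Each SE was derived from that test, as the absolute log2 fold change divided by the square root of the F statistic. Log2 CPM used a prior count of 2. Alternatives were DESeq2 1.42.0 (Wald test), DESeq2 size factors in edgeR, library totals, no filter, only the libraries compared, a replicate block, each library left out in turn and, chosen after seeing the data, TMM factors without genes of the mitochondrial genome.

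Genes were known by symbol, and all 79 members matched 1 gene each of GENCODE M21 (GRCm38, the assembly of mm10), which need not be the annotation of the counting. Of these, 21 share exon bases with a gene of the table on the opposite strand, where reads cannot be assigned without the strand setting, and 0 on the same strand. Lengths are unions of exons. Promoter windows came from RefSeq (GRCm38.p6). The members and all lists were chosen with earlier results of these data known. Named by rule were, in each family, up to 2 called members that rose most and up to 2 that fell most, or where no member was called the 2 with the smallest p, together with a set of well-known members, and other members named were chosen after their values were seen, Snrpe among them.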

Additional observations from a re-analysis of the deposited data

Results flagged for a closer look

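In 2 members every library of WT EtOH lay on one side of WT Control and every library of Elf4-/- EtOH on the other side of Elf4-/- Control. The share of all genes tested with this pattern was not counted, so these 2 members are not shown to be unusual. Lsm12 was 23.1 and 25.2 CPM on Control diet and 22.3 and 19.2 CPM on EtOH in WT, and 20.2 and 16.6 CPM on Control diet and 21.0 and 22.7 CPM on EtOH in Elf4-/-. It had an interaction of 0.47 on the log2 scale (the alcohol effect in Elf4-/- minus that in WT) and did not pass edgeR's quasi-likelihood test (adjusted p = 0.624). Lsm11, which encodes a subunit of the U7 snRNP that processes histone mRNA, had an interaction of −1.58 and did not pass either (edgeR adjusted p = 0.567), at a level of 0.932 to 3.16 CPM. Groups of 2 are too small to test single libraries as outliers.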

How the results depend on the processing

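With 2 libraries per group each value rests on few samples. For alcohol in WT, 8 members higher and 6 lower became 5 and 3 with DESeq2, 22 and 3 with library totals and 8 and 3 without the filter, and 3 to 7 higher and 0 to 6 lower with each library left out. Without the filter 8% of all genes were called higher and 6.97% lower. The members' median of 0.033 became 0.46 with totals, 0.061 without the filter and −0.021 to 0.017 with a library left out. For alcohol in Elf4-/-, the 1 member higher became 0 with totals or with only the libraries compared, and 0 to 3 (0 to 4 lower) with a library left out, and the median of 0.046 became 0.0034 with totals and 0.0042 to 0.039 with a library left out. The medians for genotype under EtOH, genotype under Control and the interaction were −0.22, 0.27 and −0.45 with totals, where all genes had −0.23, 0.24 and −0.47, and ran from −0.020 to 0.054, −0.0080 to 0.042 and −0.050 to 0.070 with a library left out. Without the filter the last 2 were 0.065 and −0.030. The cause was not tested, beyond the shift of all genes with totals and the smaller groups with a library left out.

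Replicate numbers did not pair the libraries (correlations of deviations from −0.109 to 0.0594 over 6 pairs of groups). With a replicate block 7 members were higher and 4 lower for alcohol in WT (against 9.65% and 9.2% of all genes). Signs turned only in values that were not called. With totals, Srsf1 read 0.30, Hnrnpu 0.22, U2af1 0.23 and Lsm1 0.095 for alcohol in WT. With 1 library left out, values for alcohol in WT ran from −0.28 to 0.023 for Srsf1, −0.086 to 0.15 for Srsf2, −0.033 to 0.063 for Hnrnpa2b1, −0.068 to 0.27 for Hnrnpk, −0.45 to 0.097 for U2af1 and −0.17 to 0.21 for Lsm8. In Elf4-/- they ran from −0.29 to 0.0063 for Srsf1, −0.045 to 0.49 for Snrpn and −0.46 to 0.038 for Lsm1.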
